A study of Mus musculus with 2 samples.

Results

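Nucleosome-free regions that lie far from any coding gene were described in AB22, a line of malignant mesothelioma cells from the mouse. A nucleosome-free region is a short stretch between nucleosomes into which the transposase Tn5 inserted adapters during ATAC-seq (an assay that tags accessible DNA) and in which the fragments left little room for a nucleosome. Regions on chromosomes 1 to 19 were taken as far when their midpoint lay more than 10 kb from the body of every protein-coding gene of the mouse annotation. This gave 5700 of the 30909 regions listed for the study. The control library held 3031 of them, 19.1% of its 15860 autosomal regions, and the library with silenced Hmgb1 held 2669, 18.7% of 14246.

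In each group the cells carried a doxycycline-inducible hairpin in the pTRIPZ lentiviral vector, with a control sequence (shCTRL) or one that targets Hmgb1 (shHMGB1). Both lines received virus at 20 particles per cell (multiplicity of infection), then puromycin at 4 µg/mL and 1 µM doxycycline, and were used 7 to 10 days later, so the control also went through infection, selection and induction. The selected cells were not described as single clones. Each group was 1 ATAC-seq library, so the libraries were compared as such, without a test between conditions, and a difference between the lines cannot be told apart from one between 2 libraries of the same line.

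Chromatin is packed as DNA wrapped around histones, and stretches without a nucleosome mark places where transcription factors, polymerase or architectural proteins hold the DNA. Away from coding genes such places include enhancers, insulators and the promoters of long non-coding RNAs (lncRNAs), as well as repeats whose copies collapse in an assembly. HMGB1 is an abundant non-histone chromatin protein that binds DNA with little sequence preference and bends it, and it is known to compete with linker histones at the entry of the nucleosome.

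The far regions that overlapped the promoter of an lncRNA are the ones for which sequence was at hand. They are 72 far regions of shCTRL (2.38%) and 83 of shHMGB1 (3.11%), and those printed are among the densest, so they do not stand for far regions in general. RefSeq gives 5859 such promoter windows (GRCm38.p6, 250 bases before to 50 after the start), each with its midpoint more than 10 kb from coding genes. A far region of either library reached into 127 of them and far regions of both libraries into 31, at 28 genes. The 6 windows below had the highest mean insertion density among 25 overlapping pairs of far regions that shared at least 50 bp within a window. Each is printed 5′ to 3′ on the strand of the gene, with the stretch listed as nucleosome-free in both libraries in capitals.

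Gm14403: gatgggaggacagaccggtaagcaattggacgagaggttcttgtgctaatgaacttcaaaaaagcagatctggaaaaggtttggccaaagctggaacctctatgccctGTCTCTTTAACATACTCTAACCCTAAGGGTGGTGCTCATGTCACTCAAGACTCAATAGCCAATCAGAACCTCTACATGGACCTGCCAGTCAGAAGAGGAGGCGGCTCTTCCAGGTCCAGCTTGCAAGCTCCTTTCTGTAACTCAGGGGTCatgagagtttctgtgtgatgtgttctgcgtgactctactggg
Gm26901: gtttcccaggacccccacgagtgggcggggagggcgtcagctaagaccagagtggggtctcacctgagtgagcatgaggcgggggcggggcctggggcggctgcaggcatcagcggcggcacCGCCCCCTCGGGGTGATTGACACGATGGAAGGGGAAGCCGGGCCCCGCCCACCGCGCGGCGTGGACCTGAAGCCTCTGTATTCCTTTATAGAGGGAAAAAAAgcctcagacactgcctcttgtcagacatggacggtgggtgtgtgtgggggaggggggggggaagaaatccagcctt
Gm29638: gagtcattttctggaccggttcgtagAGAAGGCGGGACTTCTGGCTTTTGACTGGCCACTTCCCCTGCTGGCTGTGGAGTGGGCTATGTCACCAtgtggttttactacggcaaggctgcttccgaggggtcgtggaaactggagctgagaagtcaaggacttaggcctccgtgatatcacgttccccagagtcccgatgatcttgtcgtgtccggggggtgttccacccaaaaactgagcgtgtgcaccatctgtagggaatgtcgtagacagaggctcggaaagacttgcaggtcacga
Gm34434: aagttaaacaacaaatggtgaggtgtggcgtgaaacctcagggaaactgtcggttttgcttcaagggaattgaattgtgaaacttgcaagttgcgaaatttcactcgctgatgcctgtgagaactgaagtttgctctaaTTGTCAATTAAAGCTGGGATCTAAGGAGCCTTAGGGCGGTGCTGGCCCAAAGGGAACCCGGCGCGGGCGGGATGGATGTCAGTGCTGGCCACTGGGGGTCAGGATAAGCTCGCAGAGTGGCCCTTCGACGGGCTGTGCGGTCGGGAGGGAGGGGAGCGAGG
Ptgs2os2: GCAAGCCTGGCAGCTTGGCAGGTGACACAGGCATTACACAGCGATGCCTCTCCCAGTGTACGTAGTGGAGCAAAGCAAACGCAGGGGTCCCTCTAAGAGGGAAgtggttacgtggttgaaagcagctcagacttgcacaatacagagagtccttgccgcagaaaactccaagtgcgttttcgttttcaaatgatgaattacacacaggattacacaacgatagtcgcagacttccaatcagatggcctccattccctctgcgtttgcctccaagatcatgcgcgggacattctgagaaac
C920009B18Rik: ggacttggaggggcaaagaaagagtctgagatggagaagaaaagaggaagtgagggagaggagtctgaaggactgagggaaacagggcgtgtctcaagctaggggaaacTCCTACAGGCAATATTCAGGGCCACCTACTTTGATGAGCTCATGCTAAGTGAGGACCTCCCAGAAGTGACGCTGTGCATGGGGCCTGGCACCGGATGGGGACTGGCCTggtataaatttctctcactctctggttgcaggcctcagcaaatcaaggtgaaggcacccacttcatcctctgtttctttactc

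These windows lie at chr2:177497976-177498275 (Gm14403, plus strand), chr1:7398047-7398346 (Gm26901, minus), chr7:12949735-12950034 (Gm29638, plus), chr3:144381099-144381398 (Gm34434, minus), chr1:150164899-150165198 (Ptgs2os2, minus) and chr10:22306532-22306831 (C920009B18Rik, plus) of GRCm38. Their nearest coding genes were Zfp970 at 18.96 kb, Pcmtd1 at 225 kb, Zfp324 at 16.0 kb, Hs2st1 at 48.6 kb, Ptgs2 at 56.9 kb and H60b at 17.9 kb. Ptgs2 encodes the inducible cyclooxygenase of prostaglandin synthesis. The stretch free in both libraries was 150 bp at Gm14403, 102 bp at Gm26901, 68 bp at Gm29638, 161 bp at Gm34434, 103 bp at Ptgs2os2 and 108 bp at C920009B18Rik.

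The pair at Gm14403 held 626 insertions in shCTRL and 708 in shHMGB1, that is 4.15 and 4.24 per bp. At Gm26901 the counts were 429 and 434, with 4.01 and 4.09 insertions per bp, and the mean nucleosome occupancy (the fraction of molecules read as covered by a nucleosome) was 0.0716 in shCTRL and 0.0157 in shHMGB1. Occupancy was also lower in shHMGB1 at the other sites printed, by less. The values were 0.0628 and 0.0504 at Gm14403, 0.0961 and 0.0892 at Gm29638 and 0.0544 and 0.0448 at Gm34434. At Ptgs2os2 they were 0.0595 and 0.0528, and at C920009B18Rik 0.0211 and 0.0165. Gm34434 held 633 and 626 insertions, 2.51 per bp in each library. Before any scaling between libraries, insertion density at Gm14403, Gm26901 and Gm34434 was thus close. Ptgs2os2 held 405 and 417 insertions (2.34 and 2.59 per bp) and C920009B18Rik 289 and 279 (2.17 and 1.81 per bp). The widest difference of the 6 was at Gm29638, with 206 insertions in shCTRL and 405 in shHMGB1, or 2.22 and 2.96 per bp. Relative to the median shared region of the whole list, the log2 ratio of insertion density, shHMGB1 over shCTRL, was 0.55 at Gm29638 (95% interval 0.30 to 0.80), 0.28 at Ptgs2os2 (0.08 to 0.48) and -0.13 at C920009B18Rik (-0.37 to 0.11). The same ratio was 0.16 at Gm14403 (0.007 to 0.32), 0.16 at Gm26901 (-0.03 to 0.36) and 0.13 at Gm34434 (-0.03 to 0.29). Intervals here and below are exact ones that cover counting error only. Insertions carry no molecular identifier and regions are treated as independent, so the intervals hold no spread between libraries.

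Promoter windows with a far region were richer in G and C than all lncRNA windows far from coding genes, and so were windows with a peak. Median GC content was 54.3% in the 31 windows with a far region in both libraries, 51% in the 127 with one in either and 46.7% in all 5859. It was also 51% in the 557 windows with an accessible peak in either library. The letters GGGCGG on either strand, as bound by SP and KLF factors, were found in 14 of the 31 windows (45.2%, 27.3 to 64.0). They were in 41 of the 127 windows (32.3%, 24.3 to 41.2) and in 23.0% (19.5 to 26.7) of the 557 with a peak. These letters were in 8.31% of the 5859 windows and in 36.0% of all 31365 RefSeq promoter windows, and the interval of the 31 windows includes the latter. In the windows printed, Gm26901 held 5 of these matches, 1 of them wholly within the capitals, and Gm34434 held 2, both in capitals. The AP-1 letters TGANTCA were in 27 of the 127 windows with a far region in either library (21.3%, 14.5 to 29.4), against 10.8% of the 5859 and 7.85% of all windows. In the 31 windows with a far region in both they were in 4 (12.9%, 3.63 to 29.8), an interval that includes both backgrounds. The TEAD letters GGAATG were in 32 of the 127 (25.2%, 17.9 to 33.7), against 17.6% and 14.6%, and in 10 of the 31 (32.3%, 16.7 to 51.4). Among the 557 windows with an accessible peak in either library, whether or not with a nucleosome-free region, the AP-1 letters were in 22.1% and the TEAD letters in 21.7%, both within the intervals of the 127. The GATA letters AGATAA were in 14 of the 127 (11.02%, 6.16 to 17.8), against 16.6% and 11.2%. Motifs of ETS, RUNX, CTCF, CRE, NFI and NRF1 were also searched. ETS was in 11 of the 127 (8.66%, 4.40 to 15.0) and 6 of the 31 (19.4%, 7.45 to 37.5), against 2.66% of the 5859. Both ETS intervals include its share of all windows. RUNX was in 14 of the 127 (11.02%, 6.16 to 17.8) and 6 of the 31 (19.4%, 7.45 to 37.5), against 6.93% and 5.32%. CTCF and CRE were each in 2 of the 127, and NFI and NRF1 in 0. Of the 6 windows printed, Gm29638 and Ptgs2os2 each held 1 TEAD match, in both cases outside the capitals. Both strands were searched and motifs could overlap. A match describes letters and no bound factor.

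Fewer far regions were listed in shHMGB1 than in shCTRL, with a ratio close to that over all regions. The ratio of shHMGB1 to shCTRL numbers was 0.881 (0.836 to 0.928) for far regions and 0.898 (0.878 to 0.919) for all autosomal regions. The far regions covered 547154 bp in shCTRL and 512630 bp in shHMGB1, 18.6% and 18.98% of the length of all autosomal regions, and held 478474 and 451372 insertions, 16.5% and 17.0% of those in all. Sequencing depth in reads is not given here. The step size of the deposited peak folds puts the expected pileup at 2.79 fragments for shCTRL and 1.68 for shHMGB1, so the control list rests on a deeper background. Its part in the numbers was not tested.

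Sequence far from coding genes was thinly populated. It makes up 1209 Mb, 49.8% of the sequence between the first and last coding gene of each autosome, and held 2.47 regions per Mb in shCTRL and 2.18 in shHMGB1. Coding gene bodies, 984 Mb, held 8.96 and 8.07 per Mb. That count took all 8814 and 7938 regions with a midpoint inside a coding gene, those near its ends included. Of these, 4778 and 4526 lay more than 1 kb from a gene end, the only ones called gene body regions below. Accessible peaks, counted in the same way, were also thinner in far sequence, at 22.5 and 21.2 per Mb against 60.4 and 50.2 in gene bodies. With gene ends included, the ratio of regions between gene bodies and far sequence was therefore wider than that of peaks in both libraries.

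The deficit in shHMGB1 was spread over chromosomes. Far regions were more numerous in shCTRL on 18 of 19 autosomes, chromosome 14 (87 in shCTRL and 91 in shHMGB1) being the other one. The interval of the ratio lay wholly below 1 on chromosomes 4 (211 and 162), 7 (176 and 131), 12 (143 and 100) and 19 (110 and 78), and wholly above 1 on 0 chromosomes. On chromosome 4, 18 and 5 of the far regions had 1 gene, Vmn1r2, as their nearest coding gene. On chromosome 3 the numbers were 227 and 225. Chromosome 2 held the most in each library, 280 and 239.

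**Figure D1:**
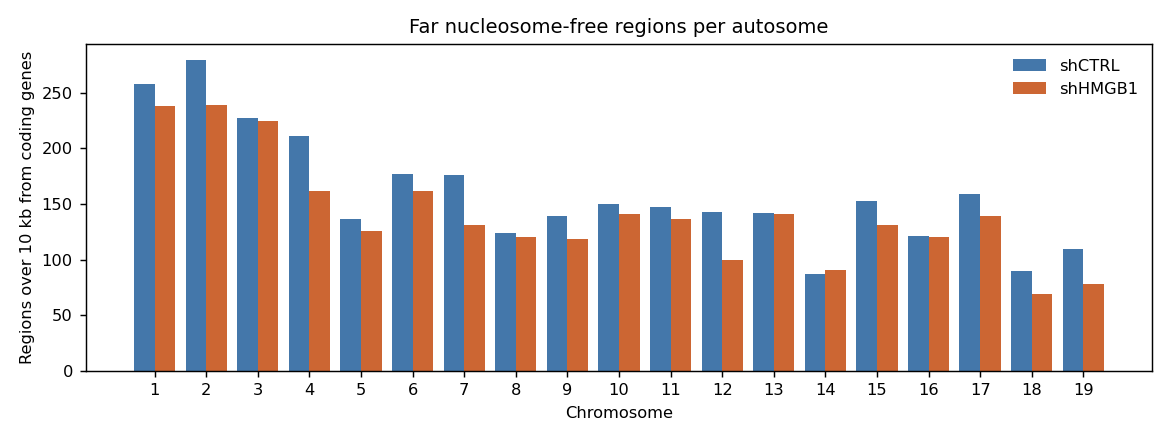
Number of far nucleosome-free regions (vertical axis) on each autosome (horizontal axis) in the shCTRL library (blue bars) and the shHMGB1 library (orange bars). The blue bar is the higher one on 18 of 19 chromosomes, and chromosome 14 has 87 in shCTRL and 91 in shHMGB1.

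Far regions were not only just beyond the 10 kb limit. The median distance to a coding gene was 42.7 kb in shCTRL and 45.6 kb in shHMGB1, and 770 (25.4%) and 708 (26.5%) lay more than 100 kb away. From 10 to 20 kb there were 667 and 581. The number beyond 500 kb was 71 and 55. Over 5 distance classes the median width was 152 to 164 bp in shCTRL and 164 to 171 bp in shHMGB1, and median occupancy was 0.0561 to 0.0608 and 0.0537 to 0.0561. There was thus no steady trend with distance. The member closest to the limit in shCTRL lay 10.0345 kb from Heatr5a (145 bp, 46 insertions). Just outside the rule, a region at 9.9995 kb from Cth in shCTRL held 256 insertions and its counterpart in shHMGB1, at 9.977 kb, held 319.

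Far regions were wider in shHMGB1 and read as slightly less occupied. The median width was 156 bp (153 to 160) in shCTRL, with quartiles of 114 and 218 bp, and 168 bp (164 to 172) in shHMGB1, with quartiles of 119 and 233 bp. Autosomal regions closer to coding genes had medians of 159 and 165 bp, but not all of their classes were wider in shHMGB1. Within 1 kb of a gene end the median was 161 bp in each library (158 to 163 and 159 to 165). In gene bodies it was 159 and 168 bp, and in the flanks up to 10 kb 153.5 and 169 bp. On 18 of 19 chromosomes the median far region was wider in shHMGB1. Among far regions with 100 to under 200 insertions the median was 181 bp in each library, so the width gap was 0 bp at matched numbers of insertions. Among those with 50 to under 100 it was 138 bp (133 to 143) in shCTRL and 149.5 bp (144 to 156) in shHMGB1.

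Median occupancy was 0.0602 (0.0587 to 0.0614) in shCTRL and 0.0555 (0.0541 to 0.0566) in shHMGB1 at far regions. It was 0.0591 and 0.0536 at the others, so the gap between libraries was as wide near coding genes. Occupancy was lower in shHMGB1 on 16 of 19 chromosomes. At matched insertions (100 to under 200) it was 0.0616 (0.0592 to 0.0639) and 0.0549 (0.0515 to 0.0570). The lowest upper bound of occupancy within a region had a median of 0.108 in shCTRL and 0.0980 in shHMGB1. No listed region had a mean above 0.10 or a lowest bound above 0.25, which look like limits of the calling, so occupancy is compared only within that narrow range.

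Far regions were less densely cut than those near genes, in both libraries. The median insertion density was 0.634 per bp (0.615 to 0.655) in shCTRL and 0.672 (0.646 to 0.699) in shHMGB1. At the ends of coding genes (within 1 kb) it was 1.08 and 1.02 per bp, in gene bodies 0.724 and 0.715, and in the flanks up to 10 kb 0.670 and 0.654. Far regions were the lowest of the 4 classes in shCTRL, while in shHMGB1 the flanks stood below them with an interval of 0.624 to 0.682 that overlaps theirs. Far regions had the higher density in shHMGB1 and the 3 other classes in shCTRL, and the intervals of the libraries overlapped for far regions, gene bodies and flanks. In both libraries the far median lay below that of the other regions on 19 of 19 chromosomes. The density is not scaled to depth, so its order between libraries is no measure of accessibility. In a bulk library, fewer cells with an open site and less cutting in each cell cannot be told apart.

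The modelled bias of the transposase for the underlying sequence was also lower at far regions. Its median density was 1.34 in shCTRL and 1.31 in shHMGB1, against 1.66 and 1.62 at the other regions, and it was lower on 19 of 19 chromosomes in each library. Insertions divided by bias had a median of 0.469 and 0.512 at far regions and 0.535 and 0.524 at the others. The bias thus moved with the density, and its part in the lower far density was not tested.

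**Figure D2:**
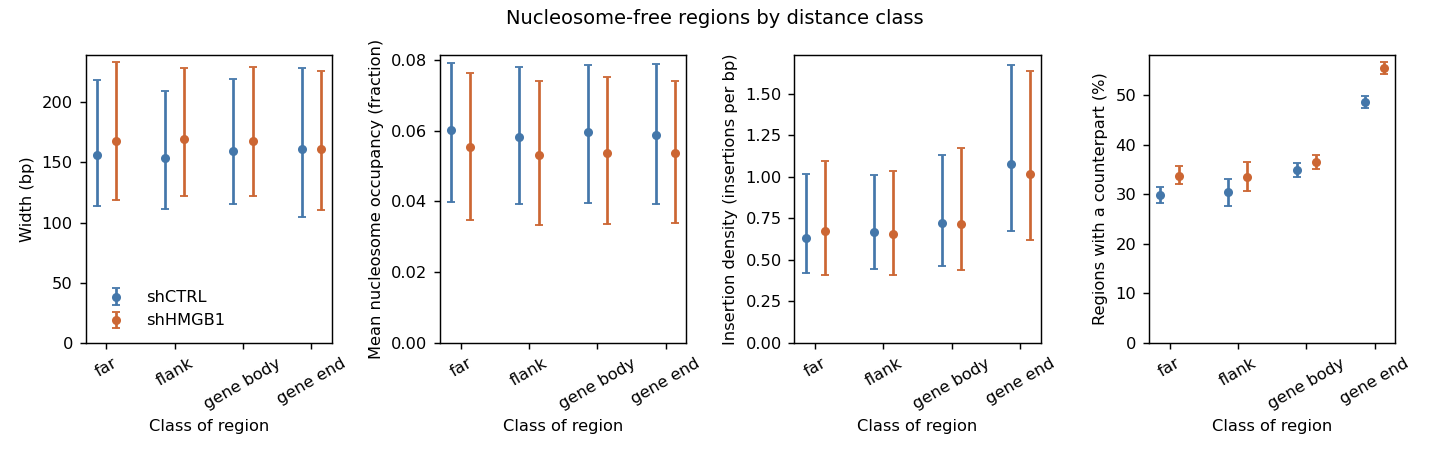
Width, mean occupancy, insertion density and share with a counterpart in the other library (vertical axes) for the 4 distance classes (horizontal axes) in shCTRL (blue) and shHMGB1 (orange). Points of the first 3 panels are medians with bars from the lower to the upper quartile, and points of the last panel are percentages with exact 95% intervals. Far regions had densities of 0.634 and 0.672 insertions per bp, against 1.08 and 1.02 at gene ends, and 29.9% and 33.8% had a counterpart.

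A minority of far regions was listed in both libraries. Of the shCTRL far regions 905 (29.9%, 28.2 to 31.5) overlapped a shHMGB1 region by at least 1 bp, and of the shHMGB1 far regions 901 (33.8%, 32.0 to 35.6) overlapped a shCTRL region. Over all autosomal regions the shares were 39.5% and 43.8%. Regions at gene ends were shared most, at 48.5% and 55.4%, while the flanks, at 30.4% and 33.5%, were like the far regions. Chromosome 12 had the lowest far share in both libraries, 15.4% and 22.0%, beside 42.6% and 48.4% for its other regions.

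Sharing rose with the number of insertions. In shCTRL 9.03% of far regions with under 50 insertions had a counterpart, 19.1% with 50 to under 100, 37.1% with 100 to under 200, 49.4% with 200 to under 300 and 58.8% with 300 or more. In shHMGB1 the shares were 11.7, 25.2, 40.9, 47.5 and 51.2%. In each of the 5 bands and in both libraries the far share was below that of the other regions. With 300 or more, 69.6% (67.6 to 71.5) of the other shCTRL regions had a counterpart and 68.1% (66.0 to 70.1) of the other shHMGB1 regions, while the far intervals were 52.4 to 65.1% and 45.4 to 56.9%.

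**Figure D3:**
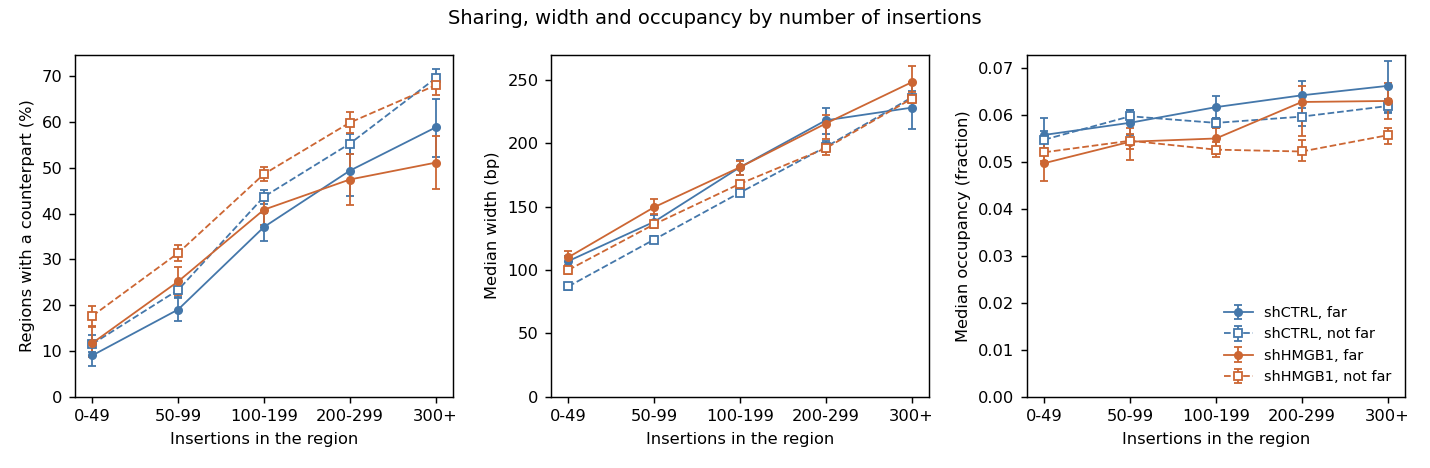
Share of regions with a counterpart, median width and median occupancy (vertical axes) by the number of insertions in the region (horizontal axes), for far regions (filled circles, solid lines) and other autosomal regions (open squares, dashed lines) in shCTRL (blue) and shHMGB1 (orange). Bars are exact 95% intervals. The far share climbed from 9.03% to 58.8% in shCTRL, and from 11.7% up to 51.2% in the shHMGB1 library, while median width was 181 bp in both libraries at 100 to under 200 insertions.

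Most far regions without a counterpart lay in chromatin that was accessible in both libraries. Of the shCTRL far regions 2845 (93.9%, 92.9 to 94.7) overlapped a peak of their own library and 2810 (92.7%) a peak of shHMGB1. The background over all autosomal regions was 96.7% and 95.8%. Of the shHMGB1 far regions 2617 (98.1%, 97.5 to 98.5) overlapped their own peaks and 2530 (94.8%) a shCTRL peak, beside 98.9% and 96.8% over all. No counterpart, but a peak of the other library, was found for 1907 shCTRL regions (62.9%) and 1634 shHMGB1 regions (61.2%). The remaining 219 (7.23%) and 134 (5.02%) had neither.

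These states differed in how much signal they held. Median insertions were 153 in shCTRL and 152 in shHMGB1 for regions with a counterpart. They were 92 and 101 for those without a counterpart but in a peak of the other library, and 39 and 35 for those with neither. The highest summit of the overlapped own peak, as pileup recovered from the deposited fold, had a median of 48 and 47 fragments for regions with a counterpart and 30 and 33 for those without. Regions outside the peaks of both libraries numbered 123 in shCTRL and 27 in shHMGB1, with median insertions of 34 and 27.

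Where a far region lacked a counterpart but had a region of the other library close by, the gap was mostly near the length of DNA wrapped in a nucleosome. Within a library the smallest gap between neighbouring far regions was exactly 145 bp, which occurred 252 times among 1623 neighbours in shCTRL (15.5%) and 269 times among 1430 in shHMGB1 (18.8%), and the next smallest gap was 268 and 282 bp. That single value looks like a spacing set by the caller. Between libraries 186 of the 2126 shCTRL far regions without a counterpart (8.75%) lay at least 100 and under 180 bp from the nearest shHMGB1 region, 8 lay nearer and 27 at 180 to under 260 bp. In shHMGB1 203 of 1768 (11.5%) lay at 100 to under 180 bp, 7 nearer and 29 at 180 to under 260 bp.

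**Figure D4:**
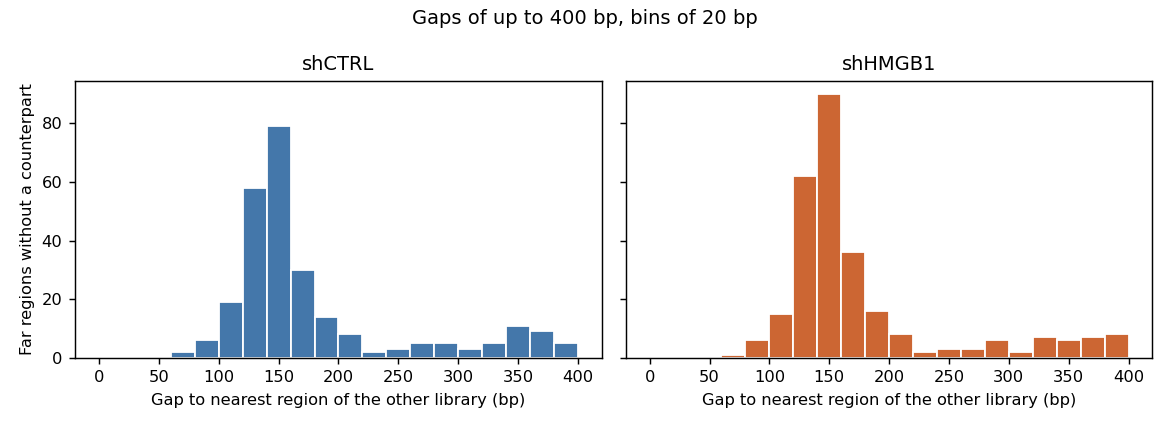
Number of far regions without a counterpart (vertical axis) by their gap to the nearest region of the other library (horizontal axis, bins of 20 bp up to 400 bp), for shCTRL (left) and shHMGB1 (right). Gaps gather at 100 to under 180 bp, with 186 regions in shCTRL and 203 in shHMGB1, and 8 and 7 regions lie nearer.

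Few accessible peaks far from genes contained a nucleosome-free region. Of 27341 far peaks in shCTRL 2620 (9.58%, 9.24 to 9.94) held one, and of 25815 in shHMGB1 2372 (9.19%, 8.84 to 9.55), beside 12.7% and 13.3% of all autosomal peaks. The share grew with the deposited significance of the peak. Below a −log10 q of 5 it was 1.71% and 1.16% and at 50 or more it was 45.3% in shCTRL (42.5 to 48.0) and in shHMGB1 (43.0 to 47.7). Among all peaks of 50 or more it was 61.2% (60.1 to 62.4) and 57.6% (56.5 to 58.6), above the intervals of the far peaks. Far peaks with several regions numbered 238 and 255, with at most 9 and 10 regions in a peak.

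At shared far sites the density ratios centred close to those of all shared sites. The 910 overlapping pairs had a median log2 ratio of 0.07 (0.03 to 0.09) relative to all 6334 autosomal pairs, with quartiles of -0.22 and 0.29, and 1.54% of them (14 pairs) stood at 1 or above, beside 0.963% of all pairs. At -1 or below stood 19 (2.09%), beside 2.18% of all. The counting interval lay above 0 for 215 pairs (23.6%, 19.3% over all) and below 0 for 159 (17.5%, 19.1% over all). The centre of all pairs, a log2 ratio of -0.13, was subtracted throughout.

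The largest ratios came from pairs whose 2 intervals were drawn differently. Of the 14 pairs at 1 or above 9 were narrower in shHMGB1, and of the 19 at -1 or below 15 were wider in it. Across the 910 pairs the log2 density ratio and the log2 width ratio had a Spearman rho of -0.43 and a Pearson r of -0.37, a description only, since density is insertions over width. Of the 353 pairs whose overlap was at least 0.8 of their union, 0 stood at 1 or above and 1 at -1 or below, with values from -1.13 to 0.76 and a median of 0.09 (0.05 to 0.12). The 1 pair at -1 or below, named after its value was seen, lay 165 kb from Gdi2 on chromosome 13, with 571 insertions over 70 bp in shCTRL and 197 over 58 bp in shHMGB1. The full range over the 910 pairs was -2.05 to 4.49, and its upper end was a pair near Alkbh8 with 1 insertion over 13 bp in shCTRL and 52 over 33 bp in shHMGB1.

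**Figure D5:**
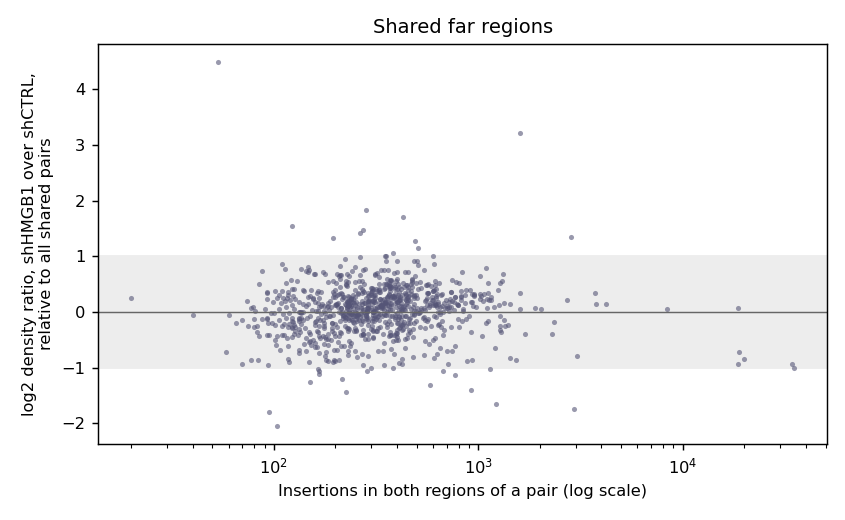
Log2 ratio of insertion density, shHMGB1 over shCTRL, relative to the median of all shared autosomal pairs (vertical axis) against the insertions in both regions of the pair (horizontal axis, log scale) for the 910 shared far pairs (points). The grey band spans -1 to 1 and holds all but 14 pairs above and 19 below.

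Occupancy at shared sites was lower in shHMGB1 slightly more often than not. It was lower in 528 of 910 far pairs (58.0%, 54.7 to 61.3), with a median difference of -0.0053 (-0.0074 to -0.0032), and in 58.1% of all autosomal pairs. Over the 353 closely matched pairs it was lower in 210 (59.5%, 54.2 to 64.7). The shHMGB1 region was the wider one in 488 far pairs (53.6%, 50.3 to 56.9), by a median of 4 bp (1 to 8).

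The pairs farthest from the median, with both regions at least 100 bp wide, also differed in width. Near Kctd3 (chromosome 1, 47.7 kb) a shCTRL region of 552 bp with 165 insertions faced a shHMGB1 region of 119 bp with 116 insertions, a log2 ratio of 1.84 (1.48 to 2.19). A pair 188 kb from A1bg (chromosome 15) had 107 insertions over 293 bp and 87 over 104 bp, a ratio of 1.33 (0.90 to 1.75). A pair 16.9 kb from Ngly1 (chromosome 14) had 246 over 532 bp and 242 over 237 bp, a ratio of 1.27 (1.01 to 1.54). In these 3 the wide region was that of shCTRL.

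In the other direction, the pair 32.1 kb from Ccn5 (chromosome 2), a gene of the CCN family of matricellular proteins, had 136 insertions over 163 bp in shCTRL and 88 over 313 bp in shHMGB1, a log2 ratio of -1.44 (-1.84 to -1.04). Near Scaf8 (chromosome 17, 94.4 kb) 376 insertions over 107 bp faced 542 over 449 bp, a ratio of -1.41 (-1.60 to -1.22). Near Fat4 (chromosome 3, 258 kb), which encodes an atypical cadherin, 192 over 197 bp faced 390 over 1094 bp, a ratio of -1.32 (-1.57 to -1.06). Here the wide region was that of shHMGB1. At Scaf8 it also overlapped a second shCTRL region with 384 insertions.

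A handful of stretches held insertions far out of proportion to their number of regions. Far regions with more than 8 insertions per bp fell into 8 stretches. Counted with all far regions within 50 kb of them, the stretches held 38 far regions in shCTRL and 41 in shHMGB1 but 15.9% and 13.6% of all far insertions. The densest lay on chromosome 2 from 98662413 to 98667138, 1031 kb or more from Lrrc4c. A shared pair there held 8930 insertions over 192 bp in shCTRL and 9649 over 217 bp in shHMGB1, or 46.5 and 44.5 per bp. A second pair held 4526 and 3843, at 25.9 and 24.5 per bp. The densest regions without a counterpart lay in the same stretch, one of 86 bp with 31.6 insertions per bp in shCTRL and one of 29 bp with 156 per bp in shHMGB1.

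Other stretches differed more. On chromosome 17 from 39843251 to 39848311, at the 18S ribosomal pseudogene Rn18s-rs5 with Esp38 as nearest coding gene, and within 50 kb of it, shCTRL listed 5 regions with 39599 insertions and shHMGB1 3 with 20684. They included the widest region of shHMGB1, 2433 bp with 18015 insertions (7.40 per bp), and the second widest of shCTRL, 1045 bp with 17107 insertions (16.4 per bp). On chromosome 9 from 3025491 to 3032468, near the microRNA gene Mir101c, there were 11 regions in shCTRL and 16 in shHMGB1 within the same 50 kb. On chromosome 14 from 19416066 to 19418859, counted in the same way, there were 9 and 10, all with a counterpart, and the densest pair held 594 and 802 insertions at 19.2 and 14.9 per bp. Reads from near-identical copies cannot be placed with certainty at such sites. Without all 8 stretches, a choice made after the values were seen, 29.1% and 33.1% of far regions had a counterpart and the ratio of numbers was 0.878.

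The widest shCTRL region, 1713 bp with 1035 insertions, lay on chromosome 4 from 3050794 to 3052506, 120 kb from Vmn1r2, a vomeronasal receptor gene that had 18 far regions in shCTRL and 5 in shHMGB1. The second widest in shHMGB1 was 1145 bp with 369 insertions, 38.6 kb from Rfx8. The lowest occupancy was 0.000410 in shCTRL, in a region of 13 bp with 1 insertion near Alkbh8, and 0.00130 in shHMGB1, in the region near Scaf8 described above. The next lowest were 0.000677 near Alkbh8 in shCTRL and 0.00164 near Smug1 in shHMGB1. The highest occupancies stood at 0.10 near Lrrc74a, Tent5a, Tfap2c and Yy1. The regions with 0 insertions were 1 in each library, both 5 bp wide, that of shCTRL on chromosome 16 from 3350098 to 3350102 and that of shHMGB1 on chromosome 4 from 3090934 to 3090938. With 0 insertions a density of up to 0.738 per bp (upper bound of the interval) is allowed, which spans the median of either library.

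The farthest members lay deep in gene deserts. In shCTRL it was a region of 209 bp with 64 insertions on chromosome 2 from 46521099 to 46521307, 1404 kb from Zeb2. In shHMGB1 it was a region of 113 bp with 50 insertions on chromosome 15 from 15285136 to 15285248, 1443 kb from the cadherin gene Cdh9. Neither had a counterpart, and both lay in a peak of the other library.

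Far regions were spread over many genes when each was given to its nearest coding gene. The nearest genes numbered 1799 in shCTRL and 1550 in shHMGB1, with 1029 in both lists of the 2320 in either, that is 57.2% of the shCTRL genes and 66.4% of the shHMGB1 genes. Genes with 5 or more far regions were 73 and 65. Nearness names a neighbour and no target.

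Among transcription factor genes, those of AP-1, mesenchymal and mesothelial factors were nearest to several far regions. The 12 AP-1 genes (dimeric factors that open enhancers in growth and stress responses) were nearest to 8 far regions in shCTRL (0.264% of far regions, beside 0.113% of all autosomal regions) and 6 in shHMGB1 (0.225% and 0.105%). Jun had 4 and 5 of them. The densest Jun pair, 22.9 kb from the gene, held 761 insertions in shCTRL and 835 in shHMGB1 (3.11 and 3.599 per bp). The second pair, 54.0 kb on the other side, held 576 and 617 insertions (2.10 and 2.04 per bp). Both sites were thus listed in both libraries. Without a counterpart were 3 regions of shHMGB1, with 353, 130 and 228 insertions at 107 to 110 kb, and 2 of shCTRL, with 257 insertions at 32.0 kb and 140 at 53.5 kb. Over all far regions 66.2% of those of shHMGB1 and 70.1% of those of shCTRL had none. At Fos the shared pair at 18.5 and 18.4 kb held 190 and 114 insertions (0.931 and 0.844 per bp).

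The 9 genes of the mesenchymal transition list were nearest to 13 and 14 far regions (0.429% and 0.525%, beside 0.221% and 0.204% of all). Zeb2, a repressor of epithelial genes, had 7 and 8, from 67.9 to 1404 kb away. Its strongest shared pair lay 660 kb away, with 244 insertions in shCTRL and 283 in shHMGB1 (1.09 and 1.33 per bp). Snai1, a repressor of the same class, had 4 and 3, and the shared pair at 10.5 kb held 174 and 97 insertions over 225 and 143 bp (0.773 and 0.678 per bp).

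The 13 mesothelial development factors were nearest to 15 and 10 far regions (0.495% and 0.375%, beside 0.195% and 0.168%). Nr2f2, a nuclear receptor of mesenchymal and vascular development, had 7 in shCTRL and 4 in shHMGB1, and 0 of these were shared, beside 29.9% and 33.8% of all far regions. Regions of 142 bp in shCTRL and 351 bp in shHMGB1 were 16.5 and 17.0 kb from the gene. Tbx18, a T-box factor of the embryonic coelomic lining, had 2 and 3, with a shared pair at 237 kb of 97 and 106 insertions.

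Growth and matrix genes gave a like picture. The 17 TGF-beta and BMP genes were nearest to 22 and 20 far regions (0.726% and 0.749%, beside 0.284% and 0.260%). The ligand gene Tgfb2 had 4 in shCTRL and 8 in shHMGB1. Its shared pairs at 12.7 and 41.5 kb held 133 and 123 insertions and 135 and 196 insertions, while 6 regions of 76 to 151 insertions were listed in shHMGB1 alone and 2, of 259 and 198, in shCTRL alone. The receptor gene Tgfbr2 had 4 and 7, none of them shared (70.1% and 66.2% of all far regions had no counterpart), with 104 to 183 insertions in shCTRL and 18 to 434 in shHMGB1. They did not overlap but were often neighbours. The shCTRL regions lay at 43.9, 67.3, 91.8 and 194 kb, with shHMGB1 regions beside them at 43.5, 66.9, 92.4 and 194 kb. The other shHMGB1 regions lay at 66.5, 103 and 156 kb. The 18 matrix and adhesion genes had 15 and 16 (0.495% and 0.599%, beside 0.214% and 0.225%). The collagen gene Col1a2 had 4 and 5, with 1 shared pair at 86.3 kb (106 and 132 insertions). Thbs2, which encodes a thrombospondin, had 4 in shCTRL, of 84 to 281 insertions, and 0 in shHMGB1. As given above, most far regions had no counterpart, so absence from 1 list was common.

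The 11 MYC and cell cycle genes were nearest to 12 and 14 far regions (0.396% and 0.525%, beside 0.158% and 0.190%). Myc, which lies in a broad gene desert of chromosome 15, had 7 and 8, from 58.9 to 708 kb away, of which 3 were shared. The shared pair 579 kb away held 153 insertions in shCTRL and 150 in shHMGB1, 0.591 and 0.593 per bp. Ccne1, the cyclin E gene, had 2 and 4, and its shared pair at 13.0 kb held 264 and 152 insertions. The 14 YAP and TEAD pathway genes had 5 and 3 (0.165% and 0.112%, beside 0.145% and 0.168%). Of these, 2 near Ankrd1 were listed in shCTRL alone (309 and 124 insertions) and 2 near Amotl2 in shHMGB1 alone (206 and 233). Such absence from 1 list was common, since 70.1% of all shCTRL and 66.2% of all shHMGB1 far regions had no counterpart.

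For 6 of the 8 lists, all but the YAP and TEAD genes and the HMG family, the far share lay above the share over all regions in both libraries. The counts were small, from 6 to 22 regions. The interval of the AP-1 list included the share over all regions in shHMGB1 (0.083 to 0.489%) and began next to it in shCTRL (0.114 to 0.519%). Those of the other lists among the 6 lay above it. Single genes weighed much, since in shCTRL Zeb2 had 7 of 13 regions and Nr2f2 7 of 15. Developmental regulators are known to sit in gene-poor sequence. The shares were not scaled to the far sequence around each gene, and its part in them was not tested. The 9 HMG family genes had 2 and 2 (0.0660% and 0.0749%, beside 0.107% and 0.0632% of all), so their far share lay below that over all regions in shCTRL and above it in shHMGB1. Hmgb1 itself (chromosome 5) had 1 far region in each library: one of 130 bp with 67 insertions (0.515 per bp) at 15.0 kb in shCTRL and one of 237 bp with 359 insertions (1.51 per bp) at 26.0 kb on the other side in shHMGB1. They are different sites, and neither had a counterpart, like most far regions of each library.

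Part of the far regions lay inside non-coding genes. Inside an lncRNA gene lay 696 shCTRL regions (23.0%, 21.5 to 24.5) and 581 shHMGB1 regions (21.8%, 20.2 to 23.4), and inside a pseudogene 42 and 31. The share of far sequence covered by such genes was not computed, so whether these shares are high or low is not known. A further count, of regions more than 10 kb from a gene of any kind, gave 1518 (50.1%) and 1404 (52.6%). The widths, occupancies and shares of regions inside lncRNA genes were close to those of far regions as a whole, with 29.3% and 35.1% shared. The 72 and 83 far regions that overlapped an lncRNA promoter window were denser, at a median of 0.867 and 0.865 insertions per bp, and 38.9% (27.6 to 51.1) and 34.9% (24.8 to 46.2) of them were shared. The lncRNA genes with the most far regions were Banf2os (5 and 5), Gm11476 (5 and 3) and then 4 genes with 7 in all, among them Junos (3 and 4), which lies beside Jun. Airn, the antisense RNA of the imprinted Igf2r locus, had 3 and 2.

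Peaks at marker genes were used to see which cells the libraries hold. A peak within the gene or 1 kb of it was found in shCTRL at 6 of 12 mesothelial markers and in shHMGB1 at 5, and 6 had none in either, among them the keratin genes Krt8 and Krt18 and the uroplakin genes Upk1b and Upk3b. Fibroblast markers had one at 6 of 7 in each library, leukocyte markers at 4 of 5, endothelial markers at 3 of 4 and epithelial markers at 2 of 4, with Epcam and Krt5 bare in both. The share of all coding genes with such a peak was not computed, so these counts have no background to be read against. A peak in a gene does not measure its expression either, so this check cannot say which cells were present. Accessibility of Hmgb1 is no check of the hairpin, which acts on RNA.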

How the data were processed

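ATAC-seq lists of 1 shCTRL and 1 shHMGB1 library were used, grouped by the silencing label. Per the submitters' processing notes, Trimmomatic 0.32, BWA 0.7.5-r404, SAMtools, bedtools and MACS2 were used, with mm10 (GRCm38). Settings, read filters, any transposase shift and the caller of nucleosome-free regions are not given in the sources used here. In the deposited lists without headers, columns 4 and 5 were read as occupancy fractions (mean, lowest upper bound) and columns 6 and 7 as signal (densities of insertions and of sequence bias), from the layout and the values: column 6 times width was whole within 0.001 in 100% of rows. The deposited peaks give a score, a fold (ratio of summit to expected pileup) and −log10 p and −log10 q, per library. Depth in reads is unknown. Pileups were recovered from the step of the folds, all whole within 0.01 below a fold of 50.

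Distances ran from midpoints to the gene bodies of 20665 coding genes on autosomes (RefSeq, GRCm38.p6). Any overlap of 1 bp counted as shared. Shares have exact Clopper-Pearson intervals, counts Poisson ones, ratios conditional binomial ones, and medians order-statistic ones, all at 95%. The code was tested on simulated data with Python 3.11.15, numpy 2.4.6, pandas 2.3.3 and scipy 1.17.1. No test between conditions was made. The genome sequence was not used here, so the planned motif search was run in RefSeq lncRNA promoter windows in place of the regions. Named by rule were, outside chromosome 18 and per library, the densest shared and unshared, widest, farthest, least and most occupied regions, those next to the 10 kb limit, the pairs farthest from the median ratio, and the 2 genes per list with the most far regions. The 6 promoter windows, the dense stretches, the closely matched pairs and the regions without insertions were chosen after values were seen. The members and lists were chosen with earlier results of these data known. The shHMGB1 region just inside the 10 kb limit is not reported here. Alternatives covered the distance, the genes, chromosomes, widths, equal list sizes, overlap rules and peak threshold.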

Additional observations from a re-analysis of the deposited data

How the results depend on the processing

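In these alternatives the occupancy difference and the log2 ratio kept their sign, the number ratio and the width difference were not turned around, and 64 of the 90 recomputed values stayed within their main interval. The ratio of numbers was 0.938 at 50 kb and 0.960 with a width of at least 150 bp, where both intervals include 1, and 1 by construction with equal numbers. The width difference was 5 bp with a width of at least 150 bp, an interval that includes 0. Far regions with a counterpart made up 31.6% (shCTRL) at 50 kb, 25.7% and 26.8% (shCTRL, shHMGB1) with a width of at least 150 bp, 33.2% (shCTRL) with equal numbers, 25.3% and 28.7% with an overlap of 50% of each region, and 25.2% and 28.6% with midpoints within 50 bp. The limit of 150 bp was applied to both lists before pairing, so a region whose counterpart was narrower lost it by construction. With equal numbers the shHMGB1 share was 33.1%, and since overlap is mutual, lists of equal size give near equal shares by construction. Own peaks covered 97.4% (shHMGB1) at 50 kb, 94.8% (shCTRL) with a width of at least 150 bp, 99.1% (shCTRL) with equal numbers, 73.4% and 82.8% with peaks of a −log10 q of 10 or more, and 88.6% and 94.8% with 50% of the region covered. With equal numbers the order of the own-peak shares turned, since shHMGB1 stood at 98.1%. That setting dropped only shCTRL far regions, those of lowest insertion density, so the turn may follow from its construction. Among far regions with 100 to under 200 insertions, an alternative chosen after seeing the data, the values were 37.1% and 40.9% for counterparts, 99.8% and 100% for own peaks, 0 bp for width, -0.0067 for occupancy and 0.10 for the log2 ratio. Leaving out the dense stretches, also chosen after seeing the data, moved none of the 8 values beyond its interval. No paired analysis was possible because each group had 1 library. Sharing differed with the number of insertions (median 103 and 111 per region), whose part in it was not tested.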
